A study of Homo sapiens with 60 samples.

Results

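The urea cycle enzymes and glutamine synthetase were followed as 9 genes, CPS1, OTC, ASS1, ASL, ARG1, ARG2, NAGS, SLC25A15 and GLUL, of the 60675 genes measured in HepG2, a cell line from a human hepatocellular carcinoma. The genes were chosen by their function in ammonia disposal, and all 9 were present in the table and passed the filter on low counts. The treated groups were HepG2 cells kept for 24 h with a hot-water extract, at 20, 100 or 500 µg/mL, in triplicate libraries. The extracts were the herbs Menthae Herba and Saposhnikoviae Radix and the prescriptions Guibi-tang, Saengmaek-san, Okbyeongpung-san and Soyo-san. A further prescription, Soshiho-tang, had 1 library at each dose and is given by its values alone. They were set against 3 vehicle libraries, labelled 0.1% DMSO (the design text of the series gives 2% DMSO). The labels give no DMSO level for the extract libraries, and the vehicle alone has a sample code that begins with B1. A shift against vehicle that all extracts share thus cannot be told apart from a difference in solvent or in code. The labels do not say that the replicates were separate cultures, so p-values measure the spread between these samples, which may be technical.

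The liver removes ammonia by 2 routes. Periportal hepatocytes run the urea cycle: NAGS makes the activator of CPS1, CPS1 fixes ammonia as carbamoyl phosphate, OTC joins that to ornithine carried into the mitochondrion by SLC25A15, ASS1 and ASL build arginine in the cytosol, and arginase splits arginine into urea and ornithine. Pericentral hepatocytes capture the remaining ammonia as glutamine through GLUL, glutamine synthetase, a target of β-catenin signalling. HepG2 cells are known to make little urea through this route and to carry a deletion that activates β-catenin.

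Hepatocyte markers were high throughout. All 8 hepatocyte markers were above 5 CPM in the median library, with ALB at a median of 7771 CPM, whereas the 4 fibroblast markers summed to 0.469 to 1.51 CPM and the 3 endothelial markers to 3.84 to 6.06 CPM. The 4 leukocyte markers summed to 32.6 to 52.6 CPM, nearly all of it CD68 (median 41.0 CPM) with CD14 at a median of 2.05 CPM, while PTPRC was at 0 in 57 of 60 libraries and CD3E in 59. CPM here were computed with TMM-scaled library sizes. Among zonal markers, the pericentral genes LGR5 and RHBG had medians of 139.6 and 78.8 CPM, while CYP2E1 had 0.133 and CYP1A2 0.0395 CPM. The 4 periportal markers summed to 11.4 to 16.1 CPM, most of it GLS2 at a median of 12.4 CPM. HAL had a median of 1.15 CPM and HSD17B13 of 0.0556 CPM, and SDS was at 0 in 41 libraries. Library totals ran from 20446542 to 32386486 counts. The nuclear RNA MALAT1 separated 2 classes, a lower one of 31 libraries (174.6 to 282.6 CPM) and a higher one of 29 (387.0 to 552.5 CPM). The lower class held every library of Menthae Herba, of Saposhnikoviae Radix and of vehicle, the higher every library of Okbyeongpung-san, Soshiho-tang and Soyo-san, and Guibi-tang and Saengmaek-san were split. The classes followed the order of the samples in the series. Every library through replicate 2 of Guibi-tang at 500 µg/mL was in the lower class, and every later one in the higher. What lies behind this break was not tested. No Soyo-san or Okbyeongpung-san library shared a class with vehicle, so these comparisons were also fitted with the class as a covariate, which only the split groups of Guibi-tang and Saengmaek-san inform. Vehicle replicate 1 stood apart from the others (chi-square over its degrees of freedom 17.31 and 14.19 for the counts of replicates 1 and 2 and of 1 and 3, against 3.214 for 2 and 3), so results against vehicle were also computed without it. Libraries of other groups stood as far apart. Over all replicate pairs this value ran from 2.268 to 19.49, and replicate 1 of Guibi-tang at 20 µg/mL had 18.69 and 15.83. In bulk RNA, fewer cells of a type and less RNA per cell cannot be told apart.

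Upstream sequences are shown for both arginase genes and for ASS1, since ARG2 and ASS1 had the largest called changes between 500 and 20 µg/mL and ARG1 is the arginase of the hepatocyte urea cycle. Each line holds the 250 bases before the RefSeq start (GRCh38.p14), 5′ to 3′ on the strand of the gene, with matches to the searched motifs in capitals. The windows are chr14:67619670-67619919 for ARG2, chr9:130444711-130444960 for ASS1, the second of 2 RefSeq starts, and chr6:131572976-131573225 for ARG1, all on the plus strand.
ARG2: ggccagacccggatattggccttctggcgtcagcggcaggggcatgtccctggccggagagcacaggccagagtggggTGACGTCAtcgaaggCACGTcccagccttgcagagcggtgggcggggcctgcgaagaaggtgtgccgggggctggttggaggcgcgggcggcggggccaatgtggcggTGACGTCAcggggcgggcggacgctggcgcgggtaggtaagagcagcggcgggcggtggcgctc
ASS1: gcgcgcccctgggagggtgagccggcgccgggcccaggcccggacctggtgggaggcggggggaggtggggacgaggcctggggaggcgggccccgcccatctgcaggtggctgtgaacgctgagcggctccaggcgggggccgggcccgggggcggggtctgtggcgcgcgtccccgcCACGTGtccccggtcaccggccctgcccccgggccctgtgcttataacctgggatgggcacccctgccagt
ARG1: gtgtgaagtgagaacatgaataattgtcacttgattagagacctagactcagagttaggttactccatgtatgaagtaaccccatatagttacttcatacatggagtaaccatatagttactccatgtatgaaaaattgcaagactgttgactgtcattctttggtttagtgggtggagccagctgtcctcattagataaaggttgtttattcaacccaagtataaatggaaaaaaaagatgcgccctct

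The ARG2 window held the cAMP response element TGACGTCA at 2 places, from -172 to -165 and from -64 to -57 relative to the start, and a match to ACGTG from -157 to -153. TGACGTCA was present in 1.65% of the 35116 promoter windows of the RefSeq table and ACGTG in 18.5%. The ASS1 window held the E-box CACGTG from -71 to -66, a sequence found in 6.34% of windows and containing ACGTG on both strands. No searched motif was found in the ARG1 window, which had 37.6% G and C, against 72.4% for ARG2 and 78.8% for ASS1. The other motifs, searched on both strands, were the aryl hydrocarbon receptor core GCGTG, in 32.2% of windows, the ATF4 motif TGATGNAA, in 3.14%, the antioxidant response core TGACNNNGC, in 10.9%, the T-cell factor cores CTTTGAA, in 3.8%, and CTTTGAT, in 2.26%, and the C/EBP motifs TTGCGCAA, in 0.131%, and TTGCNNAA, in 9.05%. A TTGCGCAA match is also a TTGCNNAA match. Over the 13 windows of the 9 genes, TGACGTCA occurred at ARG2 only, and CACGTG also occurred at the third CPS1 window, from -46 to -41. CTTTGAT occurred at OTC and at neither GLUL window. A match describes the letters of the window and no more.

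GLUL was the most abundant of the 9 mRNAs per length, and OTC and ARG1 were the scarcest. In vehicle, GLUL had 49.1 ± 0.65 CPM per kb of exon length, ASS1 20.2 ± 1.1, ASL 13.0 ± 0.629, SLC25A15 10.9 ± 0.903, ARG2 9.05 ± 0.027, CPS1 5.92 ± 0.0948 and NAGS 1.11 ± 0.157 CPM per kb (SD, n = 3). At the low end were OTC with 0.182 ± 0.0356 and ARG1 with 0.137 ± 0.0401 CPM per kb. The ranges of OTC and ARG1 overlapped in vehicle, and the ranges of all other neighbours in this order did not. Exon length here is the union of all annotated exons, 10775 bases for CPS1 and 9032 for GLUL. Another choice of length could change the order. OTC counts ran from 1 to 17 per library and ARG1 counts from 5 to 34, with 3 OTC libraries at or under the floor of 3 counts, which equals 0.145 CPM at the lowest total. In these cells the mitochondrial arginase ARG2 was thus the more abundant of the arginase mRNAs in every library, as the plot of levels per kb shows.

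**Figure D1:**
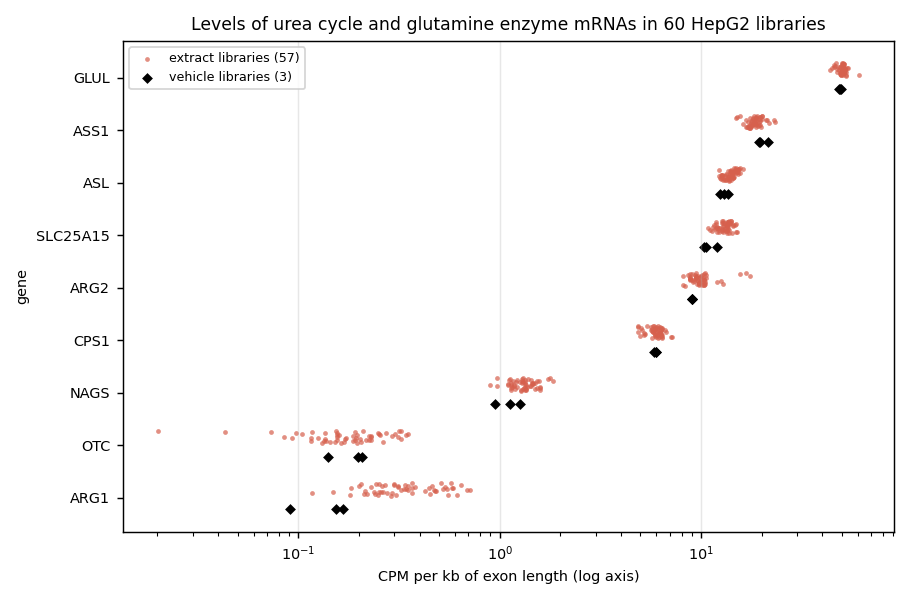
Level of each gene in CPM per kb of exon length on a log axis; each dot is 1 of 57 extract libraries and each black diamond 1 of 3 vehicle libraries. GLUL lies between 43.9 and 61.0 CPM per kb, and OTC and ARG1 lie below 1 CPM per kb in every library.

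Overlapping and duplicated loci bear on 3 of the genes. ARG2 (ENSG00000081181, chr14:67619798-67651720, plus strand, GENCODE v29 on GRCh38) shares 904 bases, 37.39% of its exon length, with VTI1B on the opposite strand, and the strand setting of the counting is not given. ASL (ENSG00000126522, chr7:66075798-66093558, plus strand) shares 563 bases with AC068533.4, which had a median count of 0. ASS1 (ENSG00000130707, chr9:130444929-130501274, plus strand) has 14 pseudogenes, whose median counts summed to 30. ARG1 (ENSG00000118520, chr6:131573144-131584332, plus strand) lies at the MED23 locus of the opposite strand and shares no exon base with it. The remaining loci are CPS1 (ENSG00000021826, chr2:210477682-210679107, plus strand), OTC (ENSG00000036473, chrX:38352545-38421450, plus strand), NAGS (ENSG00000161653, chr17:44004546-44009063, plus strand), SLC25A15 (ENSG00000102743, chr13:40789412-40810111, plus strand) and GLUL (ENSG00000135821, chr1:182381704-182392206, minus strand). All 9 are protein-coding genes.

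Setting 500 against 20 µg/mL addresses the effect of dose inside 1 extract, and its fold change uses no vehicle library. The spread behind its p-values was estimated over all 57 libraries of the model, vehicle included. At 500 µg/mL CPS1 fell and ARG2 rose with Menthae Herba, Guibi-tang and Soyo-san, ASS1 fell with Menthae Herba and rose with Guibi-tang, and GLUL fell with Saengmaek-san. A gene was called when its adjusted p from edgeR's quasi-likelihood test, Benjamini-Hochberg over 16644 genes, was under 0.05. With Menthae Herba, 4 of the 9 genes (44.4%) were called, 2 higher and 2 lower, beside 32.2% of all genes tested. Guibi-tang gave 3 of 9 (33.3%), beside 8.14% of all genes, and Soyo-san 2 of 9 (22.2%), beside 7.58%. Saengmaek-san gave 1 of 9 (11.1%), beside 1.96%. None of the 9 was called with Saposhnikoviae Radix, beside 0.397% of all genes, or with Okbyeongpung-san, beside 0.024%. At an unadjusted p under 0.05 the counts of the 9 genes were 1 for Saposhnikoviae Radix and 0 for Okbyeongpung-san, and DESeq2 called 0 for both. The medians over the 9 genes lay between -0.01 and 0.03 on the log2 scale in the 6 extracts, beside -0.01 to 0 over all genes.

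**Figure D2:**
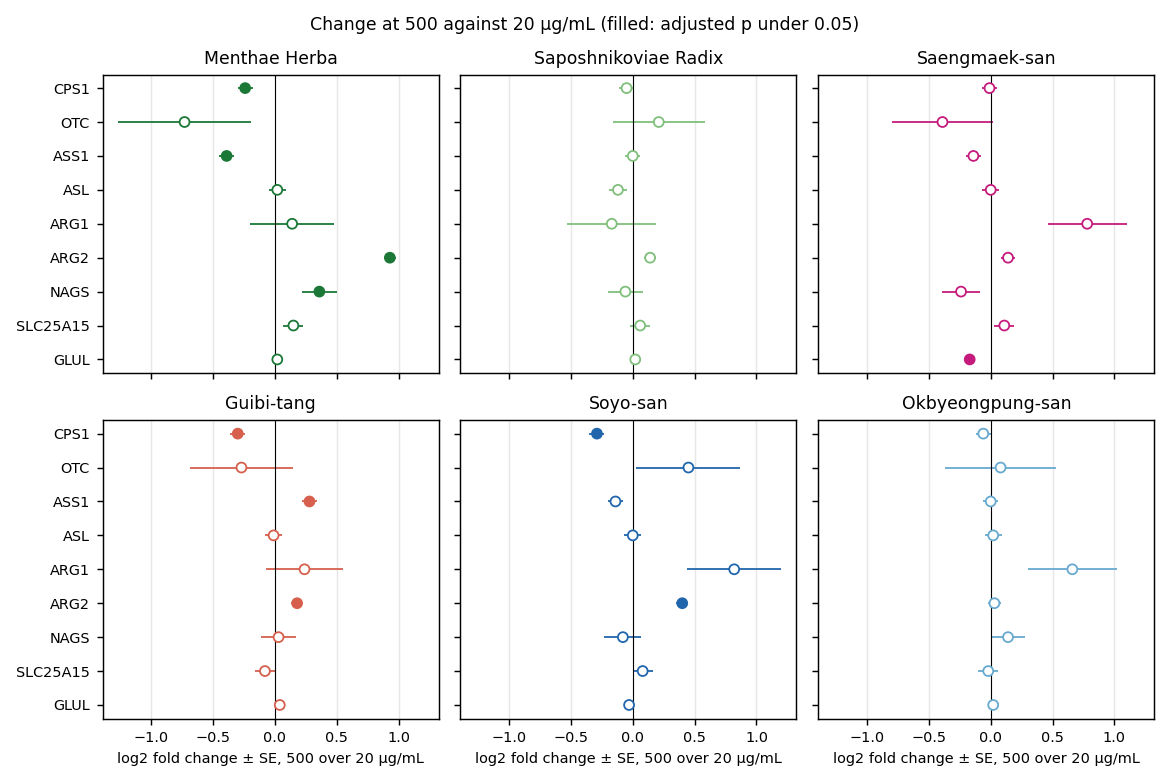
Log2 fold change of each gene at 500 over 20 µg/mL with its standard error in 6 extracts (3 libraries per dose); filled points have an adjusted p under 0.05. ARG2 reaches 0.93 with Menthae Herba, while CPS1 lies near -0.3 with Guibi-tang and Soyo-san.

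CPS1 encodes the mitochondrial carbamoyl phosphate synthetase that commits ammonia to the cycle. Libraries of Menthae Herba at 500 µg/mL had 52.2, 52.6 and 54.1 CPM, against 62.3, 64.4 and 61.8 CPM at 20 µg/mL. With Guibi-tang CPS1 had 54.9, 52.3 and 55.8 CPM at 500 µg/mL, against 61.7, 72.1 and 67.7 CPM at 20 µg/mL. With Soyo-san it had 56.9, 55.9 and 53.8 CPM at 500 µg/mL, against 68.4, 68.9 and 66.7 CPM at 20 µg/mL. The doses did not overlap in any of these extracts, and these 9 libraries at 500 µg/mL were the lowest of the 60. CPS1 fell by 0.24 ± 0.06 with Menthae Herba (adjusted p 0.0012), by 0.30 ± 0.06 with Guibi-tang (0.00033) and by 0.29 ± 0.06 with Soyo-san (0.00059; log2 fold change ± SE, edgeR). Along 20, 100 and 500 µg/mL the means were 62.8, 62.3 and 53.0 CPM with Menthae Herba, 67.2, 64.9 and 54.3 CPM with Guibi-tang and 68.0, 66.7 and 55.6 CPM with Soyo-san. With Guibi-tang the log2 fold change was -0.29 with the MALAT1 class as a covariate (adjusted p 0.00049), and it was -0.20 within the lower class and -0.32 within the higher, where 1 dose had a single library each time. With Saposhnikoviae Radix, Saengmaek-san and Okbyeongpung-san the log2 fold changes were -0.05, -0.01 and -0.06, each with an SE of 0.06.

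NAGS makes N-acetylglutamate, the obligate activator of CPS1. With Menthae Herba NAGS had 5.03, 4.90 and 5.17 CPM at 500 µg/mL, against 3.67, 3.77 and 4.30 CPM at 20 µg/mL. The doses did not overlap, and the 3 libraries at 500 µg/mL were the highest of all 60. The log2 fold change of NAGS mRNA was 0.36 ± 0.14 (adjusted p 0.035, edgeR), while CPS1 mRNA fell with this extract. The NAGS call between doses was lost without the filter, with DESeq2 and on leaving out any of 5 single libraries. The rise of NAGS against vehicle, 0.69 ± 0.14 (adjusted p 7.6e-05), was kept in each of 12 alternatives. OTC, the mitochondrial transcarbamylase, was not called between doses in any extract, with log2 fold changes from -0.73 to 0.45 and SE up to 0.54.

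ASS1 makes argininosuccinate and is commonly the limiting enzyme for arginine synthesis outside the liver. Its libraries had 47.5, 45.8 and 45.3 CPM with Menthae Herba at 500 µg/mL, against 61.1, 59.9 and 61.3 CPM at 20 µg/mL. Guibi-tang libraries had 69.9, 70.9 and 65.9 CPM at 500 µg/mL, against 57.9, 55.8 and 56.4 CPM at 20 µg/mL. The doses were apart in both extracts, on opposite sides: the Menthae Herba libraries at 500 µg/mL were the 3 lowest of all 60 and those of Guibi-tang the 3 highest. The log2 fold change was -0.39 ± 0.06 with Menthae Herba (adjusted p 2.8e-07) and 0.28 ± 0.06 with Guibi-tang (adjusted p 0.00051, edgeR). The Menthae Herba call was kept in all 13 alternatives. For Guibi-tang, the MALAT1 class as a covariate gave 0.26 (adjusted p 0.00088), and comparisons within 1 class gave 0.28 in the lower class, with 2 libraries at 500 µg/mL against 1, and 0.23 in the higher, with 1 against 2. ASL, the next enzyme, was not called in any extract, with log2 fold changes from -0.12 to 0.02.

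ARG2 showed the widest dose response of the well-expressed genes. It encodes the mitochondrial arginase, which outside the liver supplies ornithine for proline and polyamine synthesis. With Menthae Herba ARG2 had 40.2, 37.8 and 42.3 CPM at 500 µg/mL, against 22.8, 20.7 and 19.6 CPM at 20 µg/mL. Soyo-san libraries had 30.2, 29 and 31.2 CPM at 500 µg/mL, against 22.0, 23.5 and 23.1 CPM at 20 µg/mL. All 6 libraries at 500 µg/mL were above every other library of the series, whose highest value was 25.5 CPM. The log2 fold change was 0.93 ± 0.05 with Menthae Herba (adjusted p 1.4e-20) and 0.40 ± 0.05 with Soyo-san (adjusted p 2.2e-07, edgeR), and both calls were kept in all 13 alternatives. The group means along 20, 100 and 500 µg/mL were 21.0, 24.5 and 40.1 CPM with Menthae Herba and 22.8, 24.7 and 30.2 CPM with Soyo-san. With Guibi-tang ARG2 averaged 25.1 ± 0.334 CPM at 500 µg/mL and 22.2 ± 1.06 CPM at 20 µg/mL (SD, n = 3 each), a log2 fold change of 0.18 ± 0.05 (adjusted p 0.031) that was lost in 9 of 15 alternatives. VTI1B, the antisense neighbour of ARG2, averaged 53.1 ± 2.22 CPM at 500 µg/mL and 55.5 ± 2.19 CPM at 20 µg/mL of Menthae Herba, a log2 fold change of -0.06 ± 0.05 (adjusted p 0.32). Against vehicle, VTI1B was lower at 500 µg/mL of Menthae Herba, by a log2 fold change of -0.17 ± 0.05 (adjusted p 0.0032).

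SLC25A15, the mitochondrial ornithine carrier, and ARG1, the cytosolic liver arginase, were not called between 500 and 20 µg/mL in any extract. For SLC25A15 the log2 fold changes ran from -0.08 to 0.15. For ARG1 they ran from -0.17 to 0.82 with SE up to 0.38. With Saengmaek-san ARG1 had 1.05, 1.15 and 1.40 CPM at 500 µg/mL, against 0.721, 0.659 and 0.691 CPM at 20 µg/mL. These doses did not overlap, but the log2 fold change of 0.78 ± 0.32 had an adjusted p of 0.27 (edgeR). GLUL was narrow in spread and, between 500 and 20 µg/mL, almost flat in all extracts but Saengmaek-san. At 100 µg/mL of Menthae Herba GLUL averaged 417.2 CPM, between doses with 454.5 CPM (20 µg/mL) and 459.2 CPM (500 µg/mL). Against vehicle that group was not called (-0.09 ± 0.03, adjusted p 0.062, edgeR). With Saengmaek-san GLUL had 413.6, 401.5 and 396.4 CPM at 500 µg/mL, against 459.7, 451.1 and 451.3 CPM at 20 µg/mL. The doses did not overlap, and the log2 fold change was -0.17 ± 0.03 (adjusted p 0.00057, edgeR), the only call of the 9 genes with that extract. The log2 fold change was -0.17 with the MALAT1 class as a covariate (adjusted p 0.00017), -0.16 within the lower class, with 2 libraries per dose, and -0.19 within the higher, with 1 per dose. The call was lost without the filter and in a fit of those 6 libraries alone, with the log2 fold change at -0.17 in both. In the other 5 extracts the log2 fold change of GLUL lay between -0.03 and 0.04 with an SE of 0.03.

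**Figure D3:**
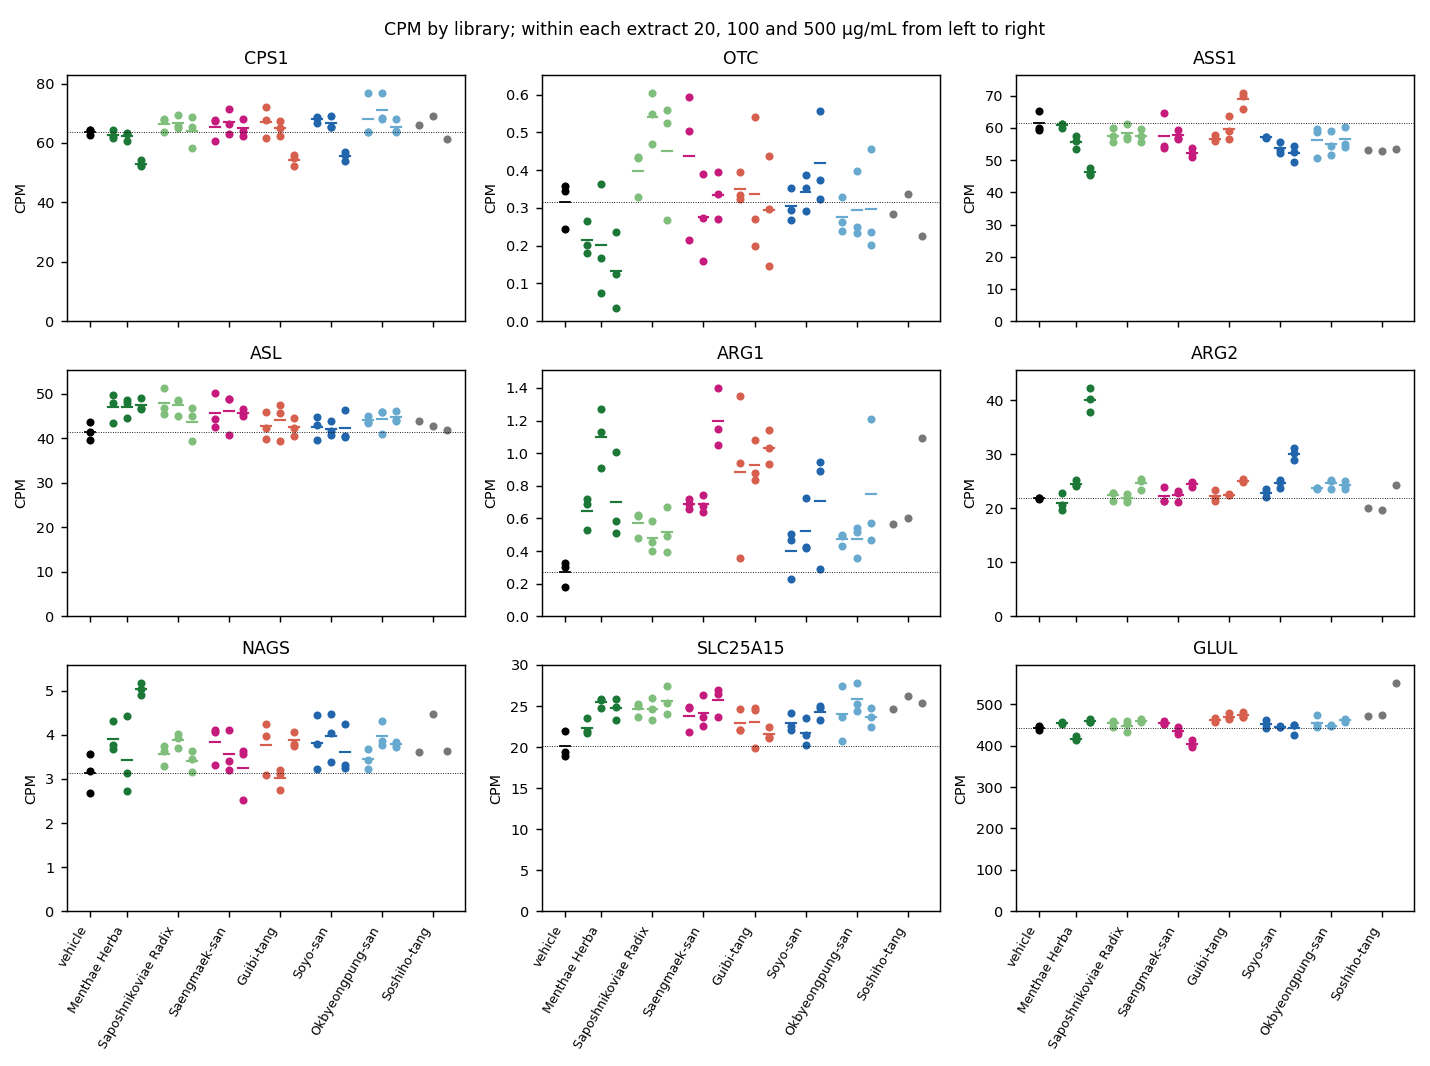
CPM of each gene in every library, from vehicle at the left (dotted line, vehicle mean) through each extract at 20, 100 and 500 µg/mL; short bars are means of 3 libraries and Soshiho-tang has 1 library per dose. ARG2 stands at 37.8 to 42.3 CPM with Menthae Herba at 500 µg/mL, and ARG1 lies above the vehicle libraries in 55 of 57 extract libraries.

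Extracts that share the first number of their sample code were compared by the difference of their changes between 500 and 20 µg/mL. For Menthae Herba minus Saposhnikoviae Radix, 2 of the 9 genes (22.2%) were called, beside 20.0% of all genes. ARG2 differed by 0.79 ± 0.08 (adjusted p 6.8e-12) and ASS1 by -0.40 ± 0.08 (adjusted p 0.00024). For Saengmaek-san minus Guibi-tang, 2 of 9 were called, beside 1.15%, with ASS1 at -0.42 ± 0.08 (adjusted p 0.0022) and GLUL at -0.21 ± 0.05 (adjusted p 0.0067). For Soyo-san minus Okbyeongpung-san, 1 of 9 (11.1%) was called, beside 2.36%, with ARG2 at 0.37 ± 0.08 (adjusted p 0.0019). The difference of CPS1 was -0.19 ± 0.09 (adjusted p 0.1), 0.29 ± 0.09 (adjusted p 0.077) and -0.23 ± 0.09 (adjusted p 0.18) in the 3 pairs in this order. CPS1 passed in 1 extract of each pair, so the extracts of a pair were not shown to differ in it.

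Against vehicle at 500 µg/mL ARG2 and SLC25A15 were called higher in 5 extracts each and CPS1 lower in 3. Without vehicle replicate 1 these calls were 3, 2 and 3. ARG1 was also called in 5, but it passed the filter only through the extract groups, so that count is no support for a rise. These 5 calls are among the counts that follow, for every extract but Saposhnikoviae Radix. Those counts are thus no measure of an excess over all genes. Menthae Herba gave 8 of the 9 genes called (88.9%), 5 higher and 3 lower, beside 39.8% of all genes, with GLUL the exception at 0.05 ± 0.03. The 8 include OTC, for which no vehicle library reached the filter level either. Soyo-san gave 5 of 9 (55.6%), beside 21.5%, Guibi-tang 5 of 9, beside 13.4%, and Saengmaek-san 5 of 9, beside 12.6%. Okbyeongpung-san gave 2 of 9, ARG1 and SLC25A15, beside 9.11%, and Saposhnikoviae Radix 2 of 9, beside 5.82%. These 6 comparisons share the 3 vehicle libraries, so a vehicle value that is off moves all of them together. The calls summed to 27 over the 6 extracts, 5 of them of ARG1. They summed to 16 without vehicle replicate 1, 23 without replicate 2 and 20 without replicate 3. ARG2 was called in 5 extracts with all vehicle libraries and in 3 without any 1 of them.

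**Figure D4:**
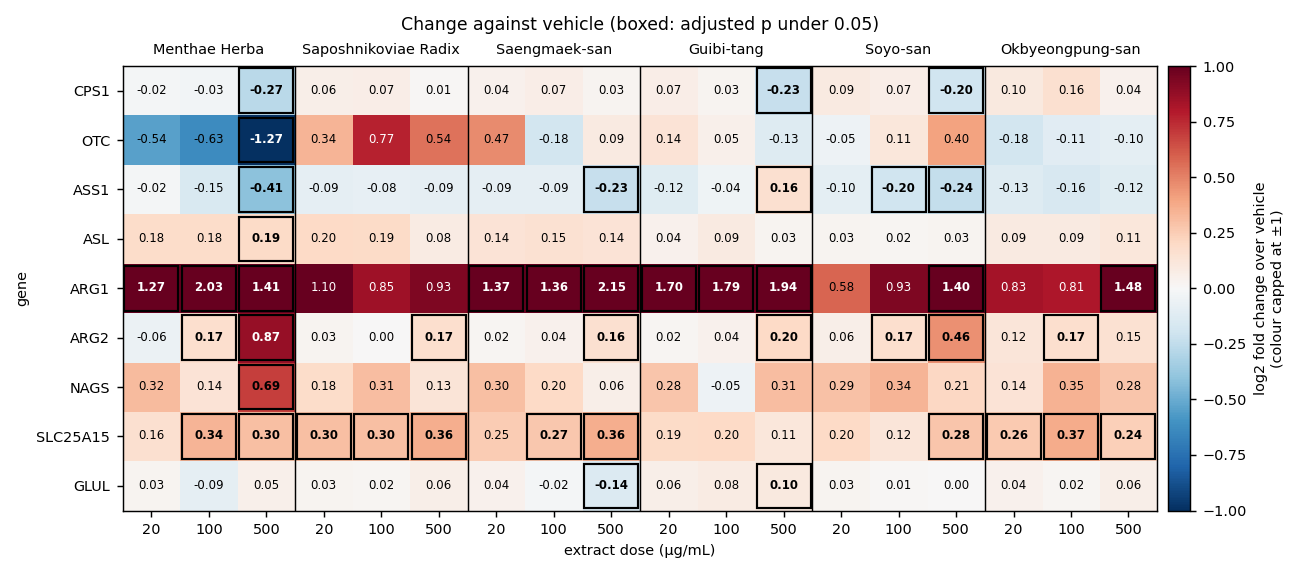
Log2 fold change over vehicle of each gene at 20, 100 and 500 µg/mL of 6 extracts (colour capped at 1 on either side); boxed bold values have an adjusted p under 0.05. ARG1 and SLC25A15 are positive in all 18 columns, and CPS1 is boxed at 500 µg/mL of Menthae Herba, Guibi-tang and Soyo-san.

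ARG1 was above all 3 vehicle libraries in 55 of 57 extract libraries and within their range in 2 Soyo-san libraries. Vehicle libraries held 5, 8 and 7 ARG1 counts, or 0.179, 0.326 and 0.301 CPM, and none reached 0.385 CPM, the level of the low-count filter. ARG1 thus passed the filter only through the extract groups, and a gene that passes in this way had to be higher in some of them, so the number of its calls is no support for a rise. Saengmaek-san libraries at 500 µg/mL had 1.05, 1.15 and 1.40 CPM, and Guibi-tang libraries at that dose 1.14, 1.03 and 0.932 CPM. Both groups lay above every vehicle library, with log2 fold changes of 2.15 ± 0.38 (adjusted p 5.0e-05) and 1.94 ± 0.38 (adjusted p 0.00021, edgeR). No alternative that gave an adjusted p, the fit without the filter among them, ended these calls. All these fits rest on the same few vehicle counts, so the p-values and the kept calls are given as description only. Menthae Herba averaged 0.700 ± 0.267 CPM, Soyo-san 0.709 ± 0.362 and Okbyeongpung-san 0.752 ± 0.404 CPM at 500 µg/mL, against 0.268 ± 0.0787 CPM in vehicle (SD, n = 3 each), and were called with log2 fold changes of 1.41, 1.40 and 1.48. The Soyo-san and Okbyeongpung-san calls were lost without vehicle replicate 1 and with the MALAT1 class as a covariate. The Menthae Herba call was lost without its replicate 1, at 1.04 (adjusted p 0.074), and that of Okbyeongpung-san without its replicate 3, at 0.96 (adjusted p 0.2). The Soyo-san call was also lost without its replicate 1 or 3. In Soshiho-tang the single libraries had 0.566, 0.601 and 1.09 CPM at 20, 100 and 500 µg/mL. DESeq2 gave ARG1 no adjusted p in 21 comparisons.

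SLC25A15 had 18.9, 22.0 and 19.4 CPM in vehicle, and 48 of the 57 extract libraries lay above all of these. It was called higher at 500 µg/mL in 5 extracts, with log2 fold changes from 0.24 (Okbyeongpung-san) to 0.36 (Saposhnikoviae Radix and Saengmaek-san), and not with Guibi-tang at 0.11 ± 0.08. Without vehicle replicate 1, 2 of these 5 calls were left, those of Menthae Herba and Saengmaek-san. At 100 µg/mL 4 extracts passed and at 20 µg/mL 2, and without vehicle replicate 1 these were 2 and 0.

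The genes that moved with dose kept their directions against vehicle. ARG2 was higher with Menthae Herba by 0.87 ± 0.05 (adjusted p 1.2e-19) and with Soyo-san by 0.46 ± 0.05 (adjusted p 3.2e-09), on the log2 scale, against a vehicle that had 21.8, 21.9 and 21.9 CPM. CPS1 fell by 0.27, 0.23 and 0.20 with Menthae Herba, Guibi-tang and Soyo-san. ASS1 was lower with Menthae Herba (-0.41), Soyo-san (-0.24) and Saengmaek-san (-0.23) and higher with Guibi-tang (0.16). The Guibi-tang rise of ASS1 had an adjusted p of 0.048, and it was lost under 7 of 13 alternatives, RLE scaling among them. The Soyo-san fall of ASS1 was lost with the MALAT1 class as a covariate, at -0.16 and an adjusted p of 0.073. With that covariate the Soyo-san log2 fold changes of ARG2 and CPS1 were 0.45 (adjusted p 3.6e-07) and -0.23 (adjusted p 0.013). OTC fell by 1.27 ± 0.51 with Menthae Herba, on 1, 3 and 6 counts against 10, 6 and 8 in vehicle, a call that 6 of 11 alternatives ended. ASL was called with Menthae Herba, at 0.19 ± 0.07 (adjusted p 0.027), and in no other extract, and 3 of 12 alternatives ended that call. GLUL was lower with Saengmaek-san (-0.14) and higher with Guibi-tang (0.10), and the Guibi-tang call was lost in 9 of 13 alternatives.

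The lower doses gave few calls. At 100 µg/mL, 3 of the 9 genes were called with Menthae Herba beside 14.0% of all genes, 1 with Saposhnikoviae Radix beside 5.47%, 2 with Saengmaek-san beside 6.04%, 1 with Guibi-tang beside 7.95%, 2 with Soyo-san beside 8.31% and 2 with Okbyeongpung-san beside 12.9%. All but 1 of these 11 calls were rises, of ARG1, ARG2 or SLC25A15, and the exception was ASS1 with Soyo-san at -0.20 ± 0.06. ARG1, whose calls are no support for a rise, gave 3 of them. The 11 calls were 5, 6 and 5 without vehicle replicate 1, 2 or 3, and the 3 ARG2 calls were 0 each time. ARG1 had 1.13, 1.27 and 0.906 CPM with Menthae Herba at 100 µg/mL, above the 0.179 to 0.326 CPM of vehicle, with a log2 fold change of 2.03 there and 1.41 at 500 µg/mL, and the doses overlapped. At 20 µg/mL, 1 gene was called with Menthae Herba beside 6.83%, with Saposhnikoviae Radix beside 7.19%, with Saengmaek-san beside 3.37%, with Guibi-tang beside 4.39% and with Okbyeongpung-san beside 6.98%, and none with Soyo-san beside 3.89%. Of these 5 calls 3 were of ARG1, where calls are no support for a rise, and 2 of SLC25A15. The 5 calls were 1, 4 and 1 without vehicle replicate 1, 2 or 3. The ARG1 call at 20 µg/mL was lost in 7 of 11 alternatives with Menthae Herba and in 9 of 12 with Saengmaek-san. With Guibi-tang it was lost in 2 of 11, within the lower MALAT1 class, where 1 library gave 0.43, and without replicate 2. At an unadjusted p under 0.05 Soyo-san at 20 µg/mL had 1 of the 9 genes, SLC25A15, and DESeq2 called 0.

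In Soshiho-tang, with no replicate, CPS1 had 66.0, 69.2 and 61.5 CPM and ARG2 20.1, 19.6 and 24.3 CPM at 20, 100 and 500 µg/mL. GLUL had 470.8, 473.4 and 551.1 CPM along these doses, and the last was the highest GLUL value of the 60 libraries. ASS1 was level at 53.1, 52.7 and 53.6 CPM.

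Among the 18 replicated extract groups, with the mean of each extract removed, the log2 levels of ARG2 ran against those of CPS1 (Pearson r -0.77) and ASS1 (r -0.70), a description over groups that share extracts and doses. The genes closest to ARG2 were PDLIM5 (r 0.987), MET and ENPP1 (0.985 each), of 9257 genes with at least 10 CPM. Those closest to CPS1 were NFIA (0.973), C2CD5 (0.972) and NR3C1 (0.963), the glucocorticoid receptor. For ASS1 they were PATL1 (0.972), SULT2A1 (0.952) and MAPKAPK3 (0.947), for SLC25A15 SRPRB (0.908), SEC61A1 (0.894) and NOMO3 (0.886), and for GLUL JUP (0.853), ABHD14B (0.82) and VPS28 (0.808). The scarce ARG1 and OTC had SLC2A9 (0.844) and TRAFD1 (0.855) as their nearest, ASL had UNC50 (0.896) and NAGS had BMP1 (0.825).

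Around the cycle, the lists are read against the share of all genes called between 500 and 20 µg/mL, 32.2% with Menthae Herba, 8.14% with Guibi-tang, 7.58% with Soyo-san and 1.96% with Saengmaek-san. With Menthae Herba, of 11 tested genes for glutamine and basic amino acid transport and asparagine synthesis, 6 were higher and 2 lower. SLC38A2, a glutamine transporter induced when amino acids are short, averaged 852.3 ± 48.4 CPM at 500 µg/mL and 445.7 ± 33.2 CPM at 20 µg/mL (log2 fold change 0.94), ASNS, asparagine synthetase, rose by 0.78 and SLC38A1 by 0.61. Of 14 polyamine and proline genes 3 were higher and none lower, a share under that of all genes, led by SAT1, which acetylates polyamines for export, with 195.3 ± 14.1 CPM at 500 µg/mL and 80.8 ± 2.64 CPM at 20 µg/mL (1.28 ± 0.07). ALDH18A1, the first enzyme of proline synthesis, and OAT, ornithine aminotransferase, rose by 0.33 and 0.24. Of 7 genes that use arginine, 2 were higher and 4 lower, with NOS3, a nitric oxide synthase, at 0.53 and the creatine synthesis gene GAMT at -0.31. Of 13 mitochondrial supply genes 3 were higher and 4 lower: GLUD1, glutamate dehydrogenase, fell by 0.40 and CA5A, the carbonic anhydrase that supplies bicarbonate to CPS1, fell by 0.41.

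Other extracts shared some of these. SAT1 was higher at 500 than at 20 µg/mL with Soyo-san (0.54), Saengmaek-san (0.30) and Guibi-tang (0.29), NOS3 with Guibi-tang (0.72) and Soyo-san (0.56), and GLUD1 was lower with Guibi-tang (-0.27) and Soyo-san (-0.24). ASNS went the other way in some of the other extracts, with -0.41 for Okbyeongpung-san, -0.39 for Saposhnikoviae Radix and -0.34 for Guibi-tang. It was not called with Saengmaek-san and was not among the genes with the largest changes with Soyo-san. With Saposhnikoviae Radix and with Okbyeongpung-san, ASNS was the only called gene of the 6 lists around the cycle.

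Of 9 tested regulators of urea cycle genes, Menthae Herba at 500 µg/mL had 1 higher and 5 lower than at 20 µg/mL, beside 32.2% of all genes called in either direction. CEBPA, a liver factor that activates urea cycle genes, averaged 64.5 ± 6.19 CPM at 500 µg/mL and 172.4 ± 4.68 CPM at 20 µg/mL (log2 fold change -1.42 ± 0.11, adjusted p 9.2e-14). PPARGC1A, a coactivator of the fasting response, was higher at 0.77. Soyo-san had 1 higher and 3 lower, beside 7.58% of all genes, with CEBPA at -0.58, NR3C1 at -0.30 and PPARGC1A at 0.31, and Guibi-tang had 1 higher and 1 lower, beside 8.14%, with NR3C1 at -0.23 and PPARGC1A at 0.26. The other 3 extracts had no called regulator.

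Some β-catenin targets fell, and fewer rose, in extracts where GLUL was not called. Of 10 tested targets beside GLUL, Menthae Herba at 500 against 20 µg/mL had 2 higher and 5 lower, beside 32.2% of all genes called. Guibi-tang had 4 lower, beside 8.14%, Soyo-san 1 higher and 3 lower, beside 7.58%, and Saengmaek-san 1 lower, beside 1.96% and its fall of GLUL. NOTUM, a secreted inhibitor of Wnt ligands, averaged 343.6 ± 14.4 CPM with Menthae Herba at 500 µg/mL and 496.8 ± 28.2 CPM at 20 µg/mL, a log2 fold change of -0.53, and was also lower with Guibi-tang (-0.32), Soyo-san (-0.32) and Saengmaek-san (-0.23). NKD1, a feedback inhibitor of the pathway, was at -0.34 with Soyo-san and -0.22 with Guibi-tang. Against the shared vehicle libraries NKD1 and NOTUM were lower in all 6 extracts at 500 µg/mL, with log2 fold changes from -0.59 to -0.28 for NKD1 and from -0.53 to -0.27 for NOTUM. RHBG, an ammonium transporter, was higher there with Saposhnikoviae Radix, at 0.21. GLUL in those comparisons lay between -0.14 and 0.10.

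Set against vehicle at 500 µg/mL, the lists around the cycle gave the most calls with Menthae Herba, as did all genes (39.8% called, beside 5.82% to 21.5% in the other extracts). With it 7 transport and asparagine genes were higher and 2 lower, 5 polyamine and proline genes higher and 2 lower, 4 supply genes higher and 4 lower, 2 arginine users higher and 2 lower, 2 regulators higher and 6 lower, and 3 β-catenin targets higher and 4 lower. SLC7A2, a transporter of arginine and ornithine, was higher with Menthae Herba (log2 fold change 0.68), Saengmaek-san (0.49) and Guibi-tang (0.33). ALDH18A1 was higher with Menthae Herba (0.40), Soyo-san (0.24), Saposhnikoviae Radix (0.22), Saengmaek-san (0.19) and Okbyeongpung-san (0.15). ASNS was higher with Menthae Herba (0.75) and lower with Okbyeongpung-san (-0.52), Saposhnikoviae Radix (-0.46) and Guibi-tang (-0.30). Among regulators, CEBPB, an acute-phase relative of CEBPA, was higher with Saposhnikoviae Radix (0.72), Menthae Herba (0.63) and Saengmaek-san (0.63). In other extracts the regulators gave 1 higher and 0 lower for Saposhnikoviae Radix, 1 and 2 for Saengmaek-san, 1 and 3 for Guibi-tang, and 0 and 4 for Soyo-san. In the last, Okbyeongpung-san, no regulator was called.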

How the data were processed

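Total RNA of HepG2 cells was sequenced with a strand-specific kit, per the labels' protocols. The submitters' processing notes name FastQC 0.11.9, Trim Galore 0.6.5, STAR 2.7.3a, RSEM 1.3.3 and GRCh38. The sources used here give neither the annotation release nor the strand setting of the counting. The authors deposited expected counts per gene, which are estimated and need not be whole. They were rounded to whole numbers, and genes were kept by edgeR's filterByExpr with a minimum count of 10, leaving 16644 of 60675 genes. One model over 57 libraries in 19 groups was fitted with edgeR 4.0.16 (R 4.3.3), with TMM scaling and the quasi-likelihood test, and p-values were adjusted over all genes tested by Benjamini-Hochberg. Standard errors are the absolute log2 fold change over the square root of F. The script was tested on simulated data, with changes planted only in genes of a higher mean count than OTC and ARG1, so that test does not cover these genes. The 3 Soshiho-tang libraries were left out of the model and are given as values. Library totals of 20446542 to 32386486 limit the precision of genes such as OTC and ARG1; the floor of 3 counts covers counting error only.

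The 9 genes, the lists around the cycle and the comparisons were chosen with earlier results of these data known. All 9 genes are named. From each list, the named genes are the called ones of at least 5 CPM with the largest changes, up to 3 a list and comparison. Some genes of these lists are not reported here by name. NKD1 and NOTUM against vehicle follow from that rule, and the antisense neighbour VTI1B was added as a check of an overlap. The genes nearest to each member are ranked by Pearson's r over 18 group means of log2(CPM + 0.5), centred within each extract, among genes of at least 10 CPM. Lengths, positions and overlaps are from GENCODE v29 on GRCh38. Upstream sequences are from RefSeq (GRCh38.p14), which matched all 9 genes. Alternatives were RLE scaling, no filter, DESeq2 1.42.0, a replicate block, the MALAT1 class as a covariate or within 1 class, a fit of the compared groups only, and leaving out each library. The MALAT1 classes were defined from these data, at 334.8 CPM. Where DESeq2 gave no adjusted p, none was used.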

Additional observations from a re-analysis of the deposited data

Results flagged for a closer look

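The change between 500 and 20 µg/mL differed between paired extracts for 5 gene values, each by a test of the difference itself in edgeR (quasi-likelihood, Benjamini-Hochberg over all genes). ARG2 and ASS1 differed between Menthae Herba and Saposhnikoviae Radix by 0.79 and -0.40 on the log2 scale (adjusted p 6.8e-12 and 0.00024), where the changes were 0.93 and 0.14 for ARG2 and -0.39 and 0.00 for ASS1. ASS1 and GLUL differed between Saengmaek-san and Guibi-tang by -0.42 and -0.21 (adjusted p 0.0022 and 0.0067), where the changes were -0.14 and 0.28 for ASS1 and -0.17 and 0.04 for GLUL. In a fit of the compared groups only both calls were lost (adjusted p 0.074 and 0.19), and that of GLUL also without the filter (adjusted p 0.35). ARG2 differed between Soyo-san and Okbyeongpung-san by 0.37 (adjusted p 0.0019), where the changes were 0.40 and 0.03. Without the filter this call was lost, at 0.35 (adjusted p 0.075).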

How the results depend on the processing

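Of 3187 values of single genes under an alternative, 0 changed direction against a called main value. Most of these had a main value that was not called, as only 58 of 243 main values were. Where the main value was called, leaving out 1 library lost 107 of 378 calls. The compared groups only lost 19 of 55, no filter 15 of 58, the class covariate 6 of 58, DESeq2 4 of 50, RLE scaling 2 of 58 and the replicate block 1 of 58. Of the alternative counts, 223 of 269 were within 1.5 times their main count. For 500 against 20 µg/mL, Saengmaek-san had 0 of its 1 call without the filter, within the higher MALAT1 class and in the fit of the compared groups only, and Guibi-tang had 0 of 3 within the lower class and 1 within the higher. These class counts rest on arms of 1 library (1 against 1 for Saengmaek-san in the higher class, 2 against 1 and 1 against 2 for Guibi-tang), assumed to vary like the other groups, so a lost call there says little about stability. Against vehicle at 500 µg/mL, Saposhnikoviae Radix had 1 of 2 without the filter and with the compared groups only, Saengmaek-san 3 of 5 under these and DESeq2, Guibi-tang 2 of 5 without the filter and with the compared groups only, and Okbyeongpung-san 1 of 2 with RLE scaling and DESeq2. The summed calls were 5, against 11, at 100 µg/mL with the compared groups only; at 20 µg/mL they were 11 with the class covariate, 2 with the compared groups only and 3 with DESeq2, against 5. The difference between Saengmaek-san and Guibi-tang had 1 of 2 calls without the filter and in the lower class, and 0 in the higher class and with the compared groups only; that between Soyo-san and Okbyeongpung-san had 0 of 1 without the filter. The DESeq2 counts leave out ARG1 where it had no adjusted p, as at 500 µg/mL of Saengmaek-san and Okbyeongpung-san. The same held for the ARG1 calls at 20 µg/mL. For ARG1 such a drop is a missing value, not a lost call. The causes of the other changes were not tested. Leaving out 1 replicate gave 0 to 2 calls for Saposhnikoviae Radix, 3 to 4 for Saengmaek-san, 2 to 4 for Guibi-tang, 3 to 5 for Soyo-san and 0 to 2 for Okbyeongpung-san against vehicle at 500 µg/mL, 5 to 12 summed at 100 µg/mL, 1 to 5 summed at 20 µg/mL, and 1 to 2 for the difference of Soyo-san and Okbyeongpung-san.

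Same-numbered replicates did not deviate together in every pair of any comparison, which does not exclude a pairing by number. For Saengmaek-san at 500 against 20 µg/mL, the deviations of same-numbered libraries had r from 0.039 to 0.277. Differently numbered ones had r from -0.186 to 0.13. With the replicate number as a block, the calls were 10 against 10 for 500 against 20 µg/mL, 27 against 27, 12 against 11 and 5 against 5 versus vehicle at 500, 100 and 20 µg/mL, and 5 against 5 for the differences. DESeq2 gave ARG1 no adjusted p in 8 comparisons where edgeR called it. Depth limits OTC, with 1 to 17 counts, and ARG1, with 5 to 34.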
